A study of Mus musculus with 12 samples.

Results

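The genes for the subunits of the NMDA receptor, Grin1, Grin2a, Grin2b, Grin2c, Grin2d, Grin3a and Grin3b, were taken by their symbols from tables of the mouse hippocampus. They are 7 of the 54532 genes and hold 39 of the 137862 transcripts in these tables. The 12 libraries were made from total RNA of the hippocampus of mice aged 3 months: 3 of each sex were controls, and 3 of each sex were Atrx-cKO. Atrx encodes a chromatin remodeller on the X chromosome, and cKO stands for its conditional knockout, placed in neurons by the title of the series. The sources used here do not give the Cre driver, the deleted exons, the strain or the alleles of the controls. The design text reads as 1 mouse per library, but no label ties a library to a mouse, so the p-values measure the spread between these libraries, which may be technical. Tissue RNA was measured as a whole, so fewer cells of a type and less RNA per cell cannot be told apart in any value that follows.

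NMDA receptors are glutamate-gated cation channels of excitatory synapses. They open when glutamate and a co-agonist, glycine or D-serine, are bound and depolarization has removed a magnesium block, and the calcium they admit starts synaptic plasticity. Every receptor contains the GluN1 subunit, encoded by Grin1, which binds the co-agonist. GluN1 is joined by GluN2 subunits, encoded by Grin2a to Grin2d, which bind glutamate and set the kinetics of the channel, or by GluN3 subunits, encoded by Grin3a and Grin3b, which bind glycine and lower the calcium permeability. In the forebrain GluN2B is the leading partner early in life and GluN2A is added as synapses mature. GluN2C is best known from cerebellar granule cells and astrocytes, GluN2D from interneurons and the brainstem, and GluN3B from motor neurons.

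The members lie apart in the genome, at the positions the files give on GRCm38.p6. Grin1 (ENSMUSG00000026959) is at chr2:25291181-25319187, Grin2a (ENSMUSG00000059003) at chr16:9567898-9995560 and Grin2b (ENSMUSG00000030209) at chr6:135713233-136173511. Grin2c (ENSMUSG00000020734) is at chr11:115249169-115267243, Grin2d (ENSMUSG00000002771) at chr7:45831883-45878378 and Grin3a (ENSMUSG00000039579) at chr4:49661611-49845744, and these 6 are all on the minus strand. Grin3b (ENSMUSG00000035745), on the plus strand at chr10:79970715-79977190, spans 6.48 kb, while Grin2a and Grin2b span 428 and 460 kb.

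Grin1 transcripts differ by cassette exons, and 8 of the 14 annotated Grin1 transcripts are coding forms built from them. The sequences of 2 cassettes are shown because the shares of these forms are compared further on. They are printed 5′ to 3′ on the coding strand, from GRCm38 with the exon borders of GENCODE M21. The N1 cassette is exon 4 of the form that holds both, 63 bases at chr2:25311343-25311405 on the minus strand, and it adds a stretch to the extracellular amino-terminal domain. The C1 cassette is exon 20, 111 bases at chr2:25294438-25294548 on the same strand, and lies in the intracellular tail.
N1 cassette: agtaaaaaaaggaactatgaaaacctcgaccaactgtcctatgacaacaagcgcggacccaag
C1 cassette: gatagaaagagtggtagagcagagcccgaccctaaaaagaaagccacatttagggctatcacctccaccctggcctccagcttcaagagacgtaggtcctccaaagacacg

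Mapped sequence ranged from 1.16 to 8.64 Gb per library. Genes for olfactory and vomeronasal receptors, which are not known to serve the hippocampus, were covered unequally, and their median FPKM is called the background. It was 0.0863 to 0.600 FPKM in control females, 0.00664 to 0.0274 in control males and 0.0178 to 0.286 in cKO males. The cKO females stood apart: the background was 0.304 FPKM in cKO female 1 but 1.97 and 2.25 in cKO females 2 and 3. Levels below are therefore FPKM per base of exon after subtraction of this background and scaling between libraries, called subtracted FPKM. Atrx, which checks the labels, had 11.2 to 12.6 subtracted FPKM in control females against 5.70 to 6.73 in cKO females, and 10.0 to 10.3 in control males against 6.41 to 8.68 in cKO males. The groups did not overlap in either sex, although its log2 change passed the test in females (−0.87, limma adjusted p = 0.0201) and not in males (−0.47, adjusted p = 1).

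Grin2a was the most abundant subunit gene in every group. It had 44.7 ± 2.55 subtracted FPKM in control females and 24.3 ± 1.02 in control males (SD, n = 3). Grin2b followed with 30.5 ± 3.71 and 14.0 ± 1.91 subtracted FPKM in the same groups. Grin1 came next, with 13.9 ± 1.25 and 9.03 ± 1.43. The ranges of these neighbours did not overlap in control females, nor in control males. The place of Grin1 depends on how its forms are added up, because its union of exons spans 9700 bases while its longest transcript has 4276. When the deposited FPKM of its transcripts was summed instead, Grin1 had 41.0 ± 4.42 FPKM in control females, which overlaps the 45.4 ± 2.59 of Grin2b. In control males the same sums were 26.0 ± 5.10 for Grin1 and 21.5 ± 3.32 for Grin2b, again overlapping.

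Grin2c and Grin3a formed a lower tier, and on subtracted FPKM their order differed between the control groups. Grin3a had 2.95 to 3.97 subtracted FPKM in control females, above the 2.59 to 2.82 of Grin2c. In control males Grin2c, at 3.73 to 4.60, was above Grin3a, at 2.17 to 2.88. This order depends on the measure. On summed deposited FPKM Grin3a had the higher mean in control males too, at 5.11 against 4.63, with overlapping ranges. Before subtraction the exonic ranges overlapped in control females, with Grin3a from 3.495 and Grin2c up to 3.498 FPKM. Grin2d and Grin3b were near the limit of detection, with at most 0.265 and 0.136 subtracted FPKM in any library, and their ranges overlapped in both control groups. Exons of the genes were covered at a median over libraries of 192 reads per base for Grin2a, 116 for Grin2b and 69.3 for Grin1. For Grin2c and Grin3a the medians were 23.1 and 20.9 reads per base, and for Grin2d and Grin3b only 1.52 and 1.06. Reads of genes on the opposite strand may enter these values, since the use of strand is not given: Tmem259 shares 32.1% of the exon bases of Grin3b, Grin1os shares 13.5% of those of Grin1 and Gm45441 shares 9.66% of those of Grin2d.

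**Figure D1:**
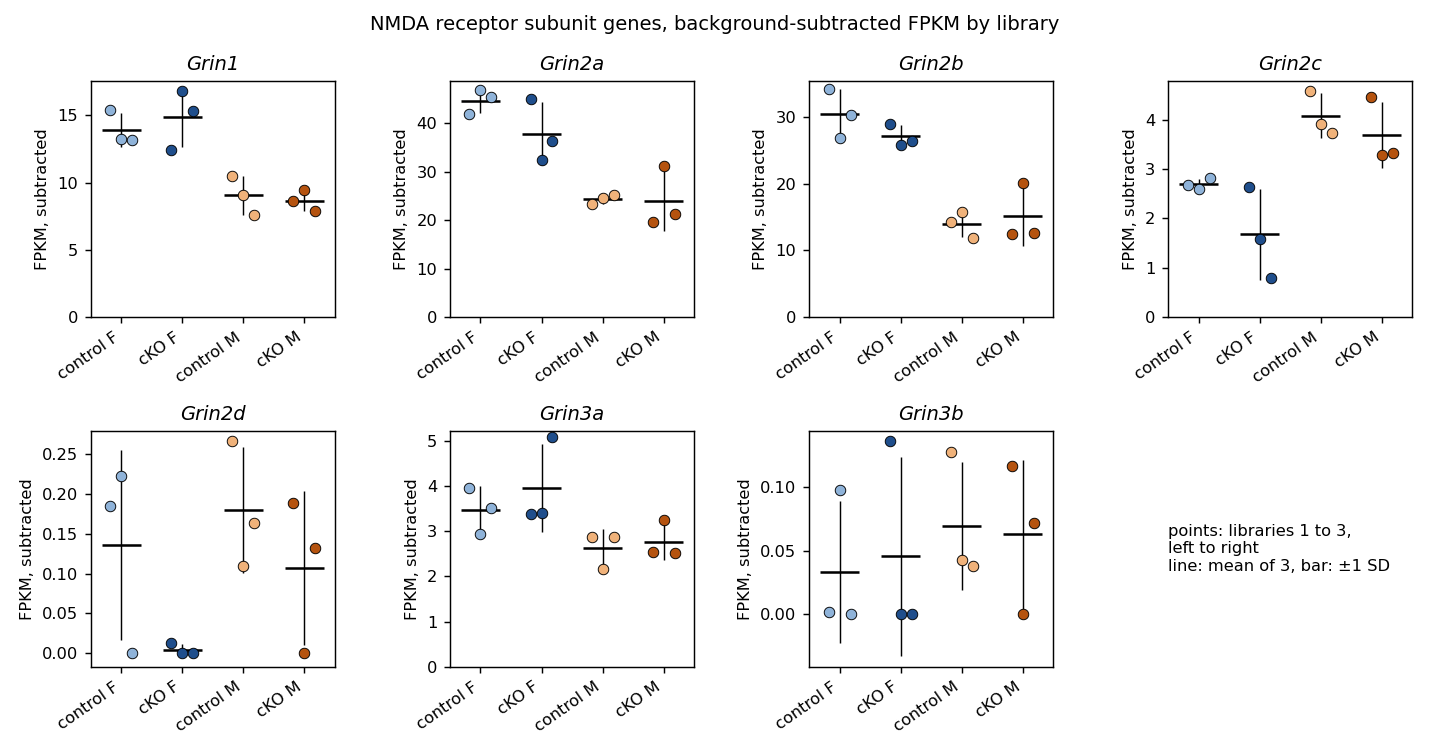
Background-subtracted FPKM of the 7 NMDA receptor subunit genes (vertical axes, each gene on its own scale) in the 4 groups of 3 libraries (control and cKO females, F, and males, M), with the mean as a line and 1 SD as a bar. Grin1, Grin2a, Grin2b and Grin3a were lower and Grin2c was higher in every control male than in every control female, beside 27.6% and 21% of all genes tested. Control and cKO libraries of a sex overlapped for all 7 genes.

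The first comparison asks whether loss of Atrx in neurons was accompanied by a change of the subunit genes in females. None of the 5 members tested passed, beside 0.073% of the 15060 genes tested (11 genes, limma adjusted p). Grin1 had 15.4, 13.2 and 13.2 subtracted FPKM in control females 1 to 3 and 12.4, 16.8 and 15.3 in cKO females 1 to 3. The groups overlapped, with a log2 difference of 0.08 (SE 0.14, 95% interval −0.22 to 0.38, limma adjusted p = 0.716). Its sign depended on the scaling: it was −0.41 without scaling after subtraction, −0.96 on deposited FPKM scaled by median-of-ratios and −0.24 on deposited FPKM as it stands (limma adjusted p = 0.0942, 0.0887 and 0.192). The median of all genes moved too: it was −0.44, 0.31 and 0.88 in the same order, beside 0.02 on subtracted FPKM. Grin2a, the main adult partner of GluN1, had 41.9, 46.8 and 45.4 in controls and 44.9, 32.3 and 36.4 in cKO females. Here cKO female 1 lay within the controls and cKO females 2 and 3 below them, and the log2 difference was −0.25 (SE 0.16, 95% interval −0.61 to 0.11, adjusted p = 0.321). Grin2b had 34.3, 26.9 and 30.4 in controls and 29.1, 25.9 and 26.5 in cKO females. These overlapped as well, at a log2 difference of −0.16 (SE 0.17, 95% interval −0.55 to 0.22, adjusted p = 0.558). Grin3a, whose product dampens calcium entry, had 3.97, 2.95 and 3.53 in controls and 3.39, 3.41 and 5.09 in cKO females. Its log2 difference was 0.15 (SE 0.18, 95% interval −0.24 to 0.55, adjusted p = 0.595).

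Grin2c showed the lowest ratio of cKO to control females among the 5 genes tested. It had 2.68, 2.59 and 2.82 subtracted FPKM in control females and 2.65, 1.59 and 0.793 in cKO females. The first cKO female lay within the controls and the other two lay below all 3. The log2 difference of −0.64 (SE 0.26, 95% interval −1.23 to −0.06) had a limma unadjusted p of 0.0329 and an adjusted p of 0.142. In the same fit 29.3% of all genes had an unadjusted p under 0.05. The low values came from the libraries with the highest background. Before subtraction the exonic FPKM of Grin2c was 3.23, 3.08 and 3.50 in controls and 3.21, 3.03 and 2.76 in cKO females, which overlap. The background amounted to 65.0% of that value in cKO female 2 and to 81.5% in cKO female 3, against 2.80% to 17.1% in the controls. Without cKO females 2 and 3 the log2 difference of Grin2c was −0.02, and those of the other 4 genes lay between −0.16 and 0.01 (limma adjusted p = 1 for each), with 1 library left in the group and its spread taken from the other groups. Without cKO female 1 instead, Grin2c was called lower, at −0.96 (limma adjusted p = 0.00467). In that fit 5906 of the 15060 genes tested were called, 2461 of them lower, against 11 called with all libraries.

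On subtracted FPKM no member separated cKO from control females, while 10.2% of all genes tested were higher and 7.52% lower in every cKO female. Before subtraction Grin1 did, at 12.1 to 13.9 exonic FPKM in cKO females and 14.1 to 17.7 in control females, as did 9.49% of the genes tested in the same direction. Grin2d and Grin3b did not pass the filter on low values and were not tested. Exonic FPKM of Grin2d before subtraction was 0.390, 0.343 and 0.434 in control females and 0.319, 0.704 and 0.833 in cKO females. That of Grin3b was 0.181, 0.199 and 0.175 in control females and 0.454, 0.759 and 0.858 in cKO females, all above the controls, as in 19.2% of the 39472 genes that did not pass the filter. The highest values of both genes were again in cKO females 2 and 3, where they lay below the background of 1.97 and 2.25 FPKM. Each gene was below the background in 4 of the 12 libraries, and after subtraction their control and cKO libraries overlapped. Deposited FPKM of Grin3b, summed over its transcripts, was 3.72-fold higher in cKO than in control females, and the mean after subtraction was 0.0454 ± 0.0786 against 0.0330 ± 0.0561 subtracted FPKM (SD, n = 3).

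**Figure D2:**
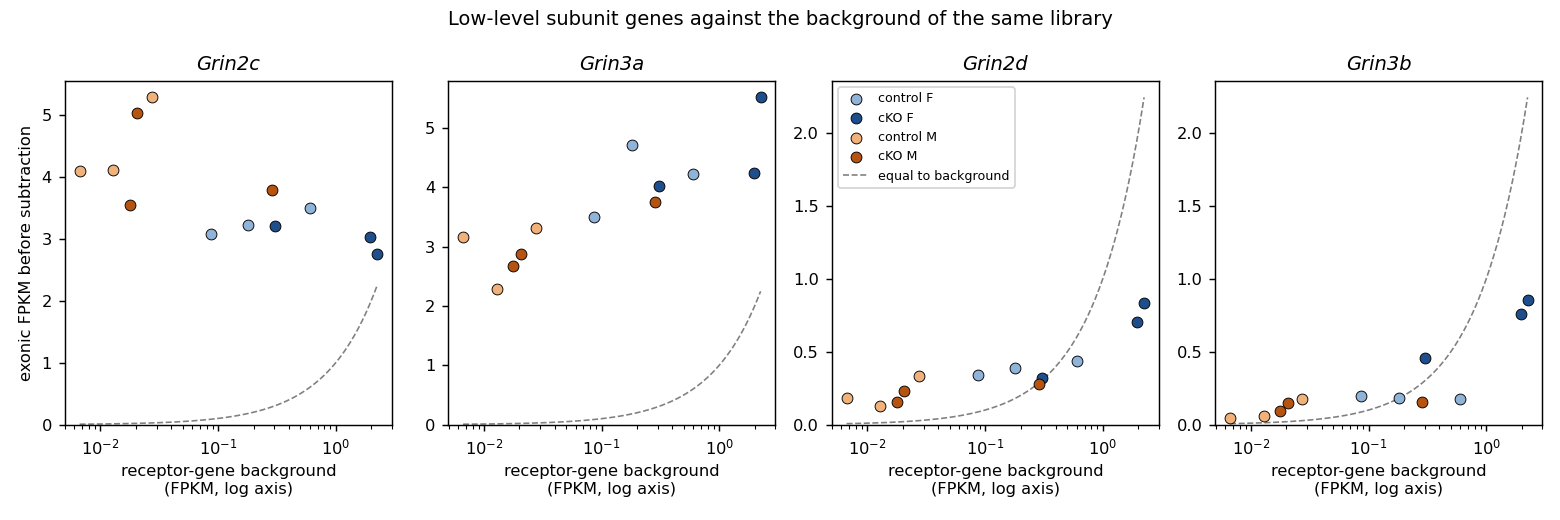
Exonic FPKM before subtraction of Grin2c, Grin3a, Grin2d and Grin3b (vertical axes) against the receptor-gene background of the same library (horizontal log axis, FPKM), 1 point per library, coloured by group (F, females; M, males). Grin2d and Grin3b lie below the dashed line of equality in cKO females 2 and 3, whose background was 1.97 and 2.25 FPKM.

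In males no subunit gene passed either, beside 0.00664% of all genes tested (1 gene), and the log2 differences lay between −0.13 and 0.08 (limma adjusted p = 1 for each). Grin1 had 10.5, 9.05 and 7.59 subtracted FPKM in control males and 8.62, 9.47 and 7.89 in cKO males (log2 difference −0.05, SE 0.14). Grin2a had 23.3, 24.5 and 25.3 in controls and 19.5, 31.1 and 21.2 in cKO males (−0.05, SE 0.16). Grin2b had 14.3, 15.7 and 11.9 in controls and 12.5, 20.2 and 12.6 in cKO males (0.08, SE 0.17). The second cKO male was the highest of its group for these 3 genes, and it had the highest background of the males, 0.286 FPKM. Grin2c had 4.60, 3.92 and 3.73 in controls and 4.46, 3.29 and 3.34 in cKO males (−0.13, SE 0.26). Grin3a had 2.87, 2.17 and 2.88 in controls and 2.55, 3.25 and 2.52 in cKO males (0.06, SE 0.18). All 5 genes overlapped between control and cKO males, while 7.4% of all genes tested were higher and 4.66% lower in every cKO male. The 95% intervals ran from −0.72 to 0.45 for Grin2c and from −0.35 to 0.25 for Grin1, so the test left room for a larger difference in the rarer gene.

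The title of the series speaks of effects that differ between the sexes, which the difference of the 2 cKO effects (male minus female) addresses. No member passed this test, and neither did any of the 15060 genes (0%; 939 genes, 6.24%, at an unadjusted p under 0.05 in limma). The largest difference among the members was 0.51 for Grin2c (SE 0.37, 95% interval −0.31 to 1.33, limma adjusted p = 0.588), and it was −0.11 without cKO females 2 and 3. For Grin2b it was 0.24, for Grin2a 0.20, for Grin3a −0.09 and for Grin1 −0.13, with adjusted p-values from 0.674 to 0.888. Averaged over the sexes, the cKO effect likewise passed for none of the members, beside 0.0332% of all genes (5 genes). It was −0.39 for Grin2c (SE 0.19, 95% interval −0.80 to 0.02, limma adjusted p = 0.261), −0.15 for Grin2a and between −0.04 and 0.11 for the other 3 genes. Without cKO female 1 the mean effect of Grin2c was called, at −0.55 (limma adjusted p = 0.0138). In that fit 4572 of the 15060 genes tested were called, 1672 of them lower. Without cKO females 2 and 3 the mean effect of Grin2c was −0.08.

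The clearest differences among the members lay between the sexes. In control males Grin1, Grin2a and Grin2b were lower than in control females, and all 3 passed the test, beside 11.7% of all genes tested (1769 genes; 5.19% lower and 6.56% higher). Grin2b was 2.19-fold higher in control females, with 34.3, 26.9 and 30.4 subtracted FPKM against 14.3, 15.7 and 11.9 in control males. Its log2 difference was −1.10 (SE 0.17, 95% interval −1.49 to −0.72, limma adjusted p = 0.00486). Grin2a was 1.84-fold higher in control females, at a log2 difference of −0.86 (SE 0.16, 95% interval −1.22 to −0.50, adjusted p = 0.00934). For Grin1 the fold was 1.54 and the log2 difference −0.60 (SE 0.14, 95% interval −0.91 to −0.30, adjusted p = 0.0191). Grin3a was lower in every control male too, but its log2 difference of −0.34 (SE 0.18) did not pass (adjusted p = 0.252).

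Grin2c ran the other way. All 3 control males, at 3.73 to 4.60 subtracted FPKM, were above all 3 control females, at 2.59 to 2.82. The log2 difference was 0.52 (SE 0.26, 95% interval −0.06 to 1.10) and did not pass (limma adjusted p = 0.243). It was also 0.52 without cKO females 2 and 3, which enter only the shared spread, and whether Grin2c passed depended on that spread. With array weights Grin2c was called higher in control males, at 0.51 (limma adjusted p = 0.0230). In that fit 5038 of the 15060 genes tested were called. Groups without overlap were common in this comparison: 27.6% of all genes tested were lower in every control male and 21% were higher in every control male. In the cKO libraries of the sexes, on subtracted FPKM, Grin1, Grin2a, Grin2b and Grin3a were lower and Grin2c higher in every cKO male than in every cKO female, beside 23% and 19% of all genes. Mean ratios of cKO females to cKO males were 1.71 for Grin1, 1.58 for Grin2a and 1.80 for Grin2b. Before subtraction and scaling Grin2a and Grin2b overlapped between cKO females and cKO males, at exonic FPKM ratios of 1.27 and 1.44.

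**Figure D3:**
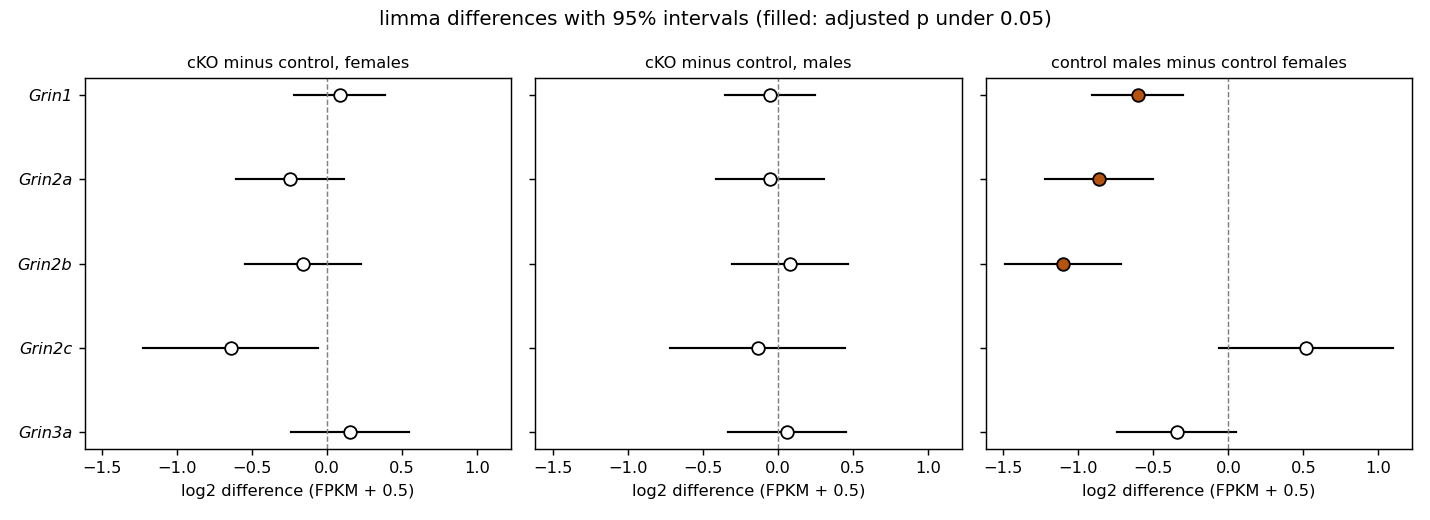
Log2 differences of the 5 tested subunit genes (horizontal axis, log2 of subtracted FPKM + 0.5) with 95% intervals from limma, for the cKO effect in each sex and for control males against control females. Filled points, at an adjusted p under 0.05, are Grin1, Grin2a and Grin2b in the sex comparison.

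These sex differences moved with other measures of the libraries. Background did not overlap between control females and control males, so sex and background cannot be told apart here. Subtraction did not part the members from it. Over the 12 libraries, Pearson r of log2(subtracted FPKM + 0.5) with log2 background was 0.855 for Grin1, 0.669 for Grin2a and 0.809 for Grin2b. For Grin3a it was 0.820 and for Grin2c −0.827. On summed deposited FPKM r was 0.641, 0.293, 0.503, 0.925 and −0.717 in the same order. These values describe and do not test. Markers of excitatory neurons (Slc17a7, Neurod6, Nrgn and Camk2a) summed to 290 to 305 subtracted FPKM in control females and to 225 to 251 in control males; 1 of 4 was called lower. Of the 4 general neuronal markers 1 was also called lower, with sums of 395 to 440 and 348 to 380: Syt1 passed at −0.67 (limma adjusted p = 0.00775), while Map2 was at 0.55 (adjusted p = 0.162). Markers of CA1 neurons summed to 21.6 to 25.3 in control females and 13.6 to 14.8 in control males, and of the 3 only Wfs1 was called (−0.88, limma adjusted p = 0.00260). Dentate granule cell markers summed to 24.0 to 32.4 and 15.4 to 19.3, with Prox1 the 1 of 3 called (−0.57, limma adjusted p = 0.0180). Of 5 interneuron markers 3 had a log2 difference below 0 and 2 had one above 0. Gad1 and Gad2, the enzymes of GABA synthesis, were called lower (−0.53 and −0.51, limma adjusted p = 0.0115 and 0.0237), and the sums of 115 to 121 and 92.5 to 119 overlapped. Astrocyte markers (Gfap, Aqp4, Aldh1l1, Gja1 and Slc39a12) summed to 92.6 to 97.2 in control females and 146 to 171 in control males, and 3 of 5 were called higher. Oligodendrocyte markers went from 168 to 227 up to 307 to 389, with 1 of 4 called higher. Every member of these 7 lists passed the filter on low values and was tested. Choroid plexus markers varied within groups, from 11.2 to 5091 in control females and from 1233 to 3608 in control males. The part of cell makeup and dissection in the subunit differences was not tested.

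**Figure D4:**
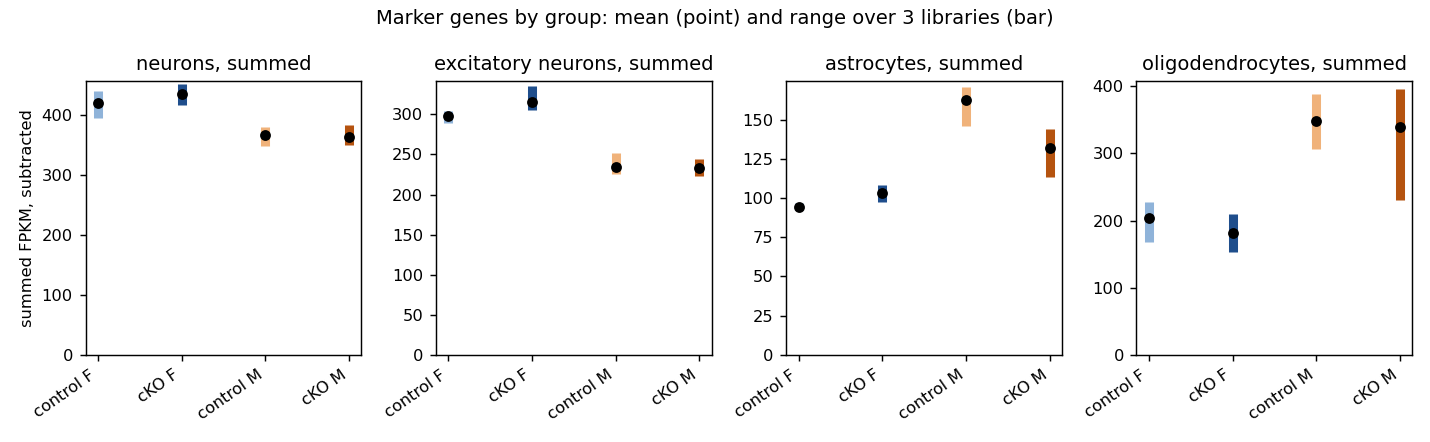
Summed subtracted FPKM (vertical axes) of marker genes of neurons, excitatory neurons, astrocytes and oligodendrocytes in the 4 groups (F, females; M, males), with the mean as a point and the range of 3 libraries as a bar. Astrocyte markers reached 97.2 at most in control females and 146 at least in control males, while excitatory neuron markers were lower in control males.

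Transcript length moved with the sex difference as well. The median log2 difference between control males and control females was −0.02 for genes whose longest transcript is under 4000 bases, −0.12 from 4000 to 8000, −0.20 from 8000 to 12000 and −0.32 above that. The longest transcript of Grin2b has 24060 bases, the most of the 7 members, and that of Grin2a has 14634. The 29 other genes within 1.5 times the length of Grin2b had a median of −0.42, against −1.10 for Grin2b. For Grin2a the 340 genes of like length had a median of −0.26, against −0.86. For Grin1, at 4276 bases, 5668 genes of like length had a median of −0.08, against −0.60. The part of length in these values was not tested further.

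The calls also changed with the measure and the scaling. Deposited FPKM differs from subtracted FPKM in several ways at once, with no subtraction, a sum over transcripts, another filter and more genes tested, and the part of each was not tested. With deposited FPKM scaled by median-of-ratios over all genes, which put the median of all genes at −0.30, the log2 differences were −0.01 for Grin1, −0.40 for Grin2a and −0.42 for Grin2b (limma adjusted p = 0.975, 0.512 and 0.419). With deposited FPKM as it stands, where the median of all genes was −0.58, Grin2b passed at −1.07 (limma adjusted p = 0.0366) while Grin1 at −0.66 and Grin2a at −1.05 did not (0.0586 and 0.137). Subtraction without scaling left the sizes at −0.62, −0.88 and −1.12 and ended all 3 calls (0.151, 0.164 and 0.112). With no filter on low values, which raises the number of genes tested, Grin1 did not pass (limma adjusted p = 0.0662) while the other two did. Leaving out each library in turn ended the call of Grin1 without control female 1 (0.0770), control male 2 (0.0614) or control male 3 (0.0816), and ended neither of the other two.

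A ratio of subunit genes within a library needs no scaling between libraries. The ratio of Grin2a to Grin2b, often used as a sign of synaptic maturity, was above 1 in all 12 libraries. Its geometric mean in females was 1.47 for controls (1.22 to 1.74) and 1.38 for cKO (1.25 to 1.55). In males it was 1.75 for controls (1.56 to 2.12) and 1.59 for cKO (1.54 to 1.67). The cKO effect over both sexes was −0.11 on the log2 scale (exact two-sided permutation p = 0.335, adjusted p = 0.465 over 3 ratios). The male minus female difference over both genotypes was 0.23 (exact permutation p = 0.06, adjusted p = 0.18). The 4 GluN2 genes together were 5.62 times the level of Grin1 in control females and 4.50 times in cKO females. The male values were 4.75 for controls and 4.87 for cKO. The size of this ratio depends on how the forms of Grin1 are added up, as its level does. Summed deposited FPKM in control females was 41.0 for Grin1, beside 93.8 for Grin2a and 45.4 for Grin2b. The cKO effect on this ratio was −0.14 (exact permutation p = 0.39, adjusted p = 0.465), and that on the ratio of Grin3a to Grin1 was 0.11 (p = 0.465 for both). With 1 library left out these effects ran from −0.18 (without control female 1) to −0.0448 (without control male 3) for Grin2a to Grin2b, from −0.25 (without cKO female 1) to −0.0563 (without cKO female 2) for the GluN2 genes to Grin1, and from 0.0234 (without cKO female 3) to 0.20 (without cKO female 2) for Grin3a to Grin1. No test within a sex could go below 0.1, and none of the 6 was below 0.4.

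The N1 cassette, whose sequence is given above, was in 4 of the 8 coding Grin1 forms, and these forms made up 60.1% to 85.6% of the FPKM of the 8 (median 76.8%). In females the share was 81.3% ± 3.80 for controls and 71.3% ± 9.95 for cKO, and in males 76.5% ± 4.57 for controls and 74.9% ± 5.32 for cKO (SD, n = 3). In control females 1 to 3 it was 79.9%, 85.6% and 78.4%, and in cKO females 79.3%, 60.1% and 74.5%. The groups of both sexes overlapped. As a share of all Grin1 FPKM, the difference of N1 forms between cKO and control libraries over both sexes was −8.43 percentage points (exact permutation p = 0.04, adjusted p = 0.24 over 6 shares), and −2.91 points without cKO females 2 and 3 (p = 0.325). All 4 forms with N1 start at chr2:25319095 in the annotation and those without it at 25319120 or 25319187, so StringTie could tell them apart by their first exon as well as by the cassette. Forms with the C1 cassette held 47.2% to 51.1% and those with the longer last exon, C2, 45.6% to 51.4%, close to an even split in every library.

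Grin2a was divided between a long form, ENSMUST00000199708 of 14634 bases, and a short one, ENSMUST00000032331 of 4395 bases. The long form held 48.4% to 86.5% of Grin2a FPKM. The short form reached 39.1 FPKM, but it was listed at 0.248 FPKM in the lowest library, 0.798% of the gene there. Its 3 low libraries, cKO female 2, control male 2 and cKO male 1, belong to 3 groups. Summed Grin2a FPKM therefore follows the assignment of reads to forms, which the exonic values do not. The share of the long form was 6.63 percentage points higher in cKO libraries over both sexes (exact permutation p = 0.375, adjusted p = 0.45). Leaving out 1 library moved this from 2.34 points (without cKO male 1) to 12.5 points (without control male 2).

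**Figure D5:**
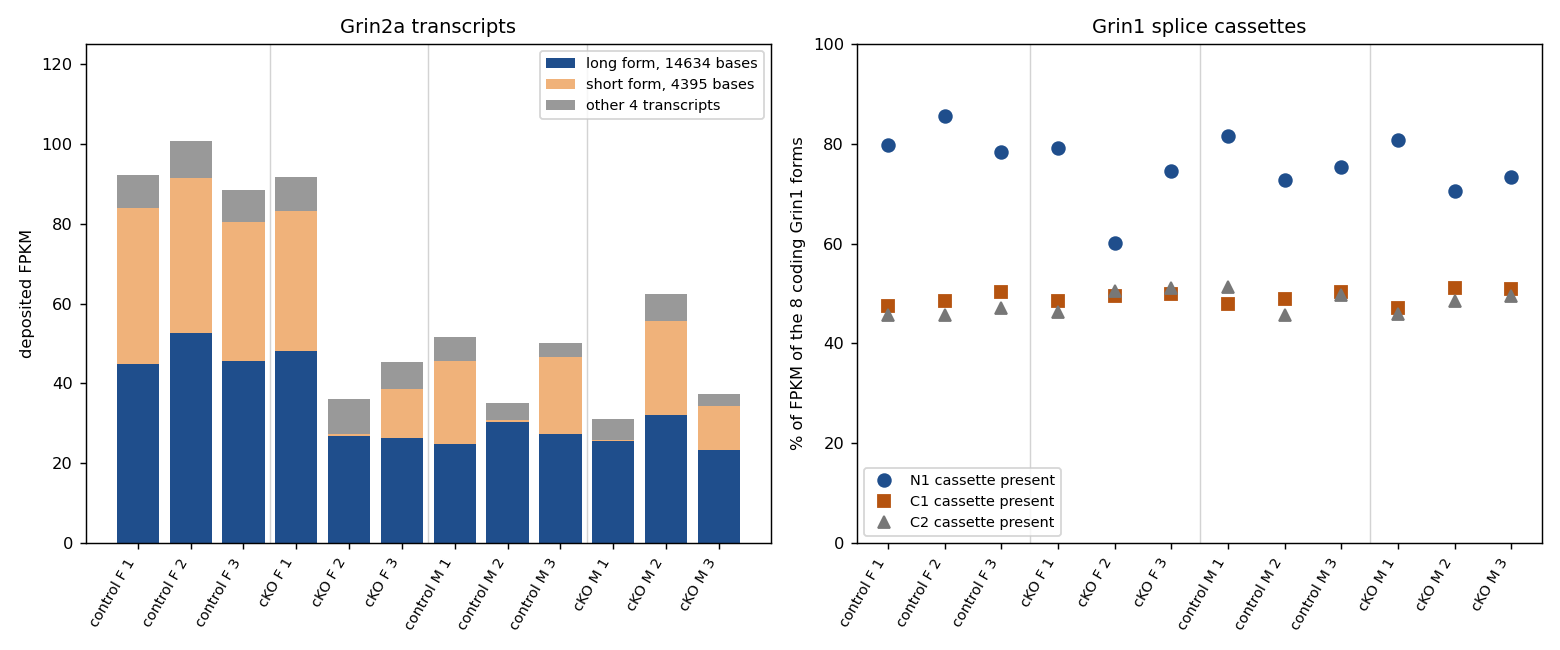
Left, deposited FPKM of the Grin2a transcripts (vertical axis, stacked bars) in each library; right, percent of the FPKM of the 8 coding Grin1 forms that contain the N1, C1 or C2 cassette (vertical axis), 1 point per library (F, females; M, males). The short Grin2a form is nearly missing in 3 libraries of 3 groups, and the N1 share ranges from 60.1% to 85.6% while C1 and C2 stay between 45.6% and 51.4%.

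Grin2b was led by ENSMUST00000053880 of 24060 bases, with 61.6% to 85.5% of its FPKM, followed by a form of 630 bases with 5.90% to 28.0%. Grin2c came almost wholly from ENSMUST00000106554, with 97.2% to 100% in each library. The main Grin3a form, ENSMUST00000076674 of 7431 bases, held 15.7% and 23.3% of the gene in cKO females 2 and 3 and 44.3% to 66.7% in the other 10 libraries. The short form ENSMUST00000131797 of 3 exons reached 39.8% of Grin3a FPKM. Over both sexes the share of ENSMUST00000076674 differed by −13.1 percentage points between cKO and control libraries (exact permutation p = 0.135, adjusted p = 0.29). Of the 6 shares compared, none passed after adjustment.

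The title of the series names miR-137, so the 3′ UTRs of the members were searched for matches to its seed. The mature sequence, from RefSeq, is printed 5′ to 3′ with the seed (bases 2 to 8) in capitals.
miR-137-3p: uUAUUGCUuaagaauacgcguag
The word searched, on the transcript strand only, was AGCAATA, the reverse complement of the seed. It occurred once in Grin2a and once in Grin2b and not in the longest annotated 3′ UTRs of the other 5 members. Both windows are given from GRCm38 in transcript orientation, with the match in capitals, on the minus strand at chr16:9577414-9577435 for Grin2a and chr6:135725123-135725144 for Grin2b.
Grin2a: tctaatacagaataAGCAATAt
Grin2b: tacaaacaccgaacAGCAATAt
Among 21037 genes 9.67% hold this word, but the 2 members have very long 3′ UTRs, of 9929 and 18865 bases. Of 315 genes with a 3′ UTR within 1.5 times the length of that of Grin2a 40.3% hold it, and so do 78.3% of the 23 genes of like length to Grin2b. A match is a description of the letters and not of binding. The 2 genes with a match had cKO log2 differences of −0.25 and −0.16 in females and −0.05 and 0.08 in males, none of which passed.

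Other genes of NMDA receptor signalling were described from a list of 51, of which 49 passed the filter. None was called in females, males, their difference or their mean (0.073%, 0.00664%, 0% and 0.0332% of all genes). The median cKO log2 difference of the 49 was −0.07 in females and 0.00 in males, beside 0.02 and 0.03 over all genes tested. For the mean effect 14 were above 0 and 35 below, at a median of −0.05 beside 0.01 over all genes. Among scaffold and transport genes called in no comparison, Pacsin1 and Dlg4 had the smallest limma p-values for the mean effect. Pacsin1, a protein that carries GluN3A away from the membrane, was at −0.48 (limma adjusted p = 0.222). Dlg4, which encodes PSD-95, was at −0.23 (adjusted p = 0.222).

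Between control males and control females 12 of the 49 were called, 2 higher and 10 lower, beside 11.7% of all genes tested (6.56% higher and 5.19% lower), at a median of −0.16 beside −0.07 over all genes. Both genes that were higher in control males belong to the 11 tested for agonist and co-agonist supply. Phgdh, the first enzyme of serine synthesis, went from 7.85 ± 0.871 to 11.6 ± 0.652 subtracted FPKM (log2 difference 0.54, limma adjusted p = 0.0119). Glul, the glutamine synthetase of astrocytes, went from 237 ± 10.6 to 334 ± 30.8 (0.49, adjusted p = 0.0170). In the same list the neuronal glutamate transporter Slc1a1 was lower (−0.53, limma adjusted p = 0.0242). Of 17 scaffold and transport genes 2 were lower: Dlg3, which encodes SAP102 (−0.48, limma adjusted p = 0.0236), and the auxiliary protein Neto1 (−0.53, adjusted p = 0.0440). Of 21 kinases, phosphatases and downstream enzymes 6 were lower and none higher, beside the same 5.19% and 6.56% of all genes. Among them Rasgrf1, a Ras exchange factor that binds GluN2B, Prkca and Ptk2b had log2 differences of −0.54, −0.65 and −0.69 (limma adjusted p = 0.00687, 0.00939 and 0.0131). These genes stand beside the same marker, background and length values as the subunit genes.

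The genes whose profile over the 12 libraries was most like that of a member were found by Pearson correlation of log2(subtracted FPKM + 0.5). The libraries share their group structure, depth and background, so these values describe and do not test. For Grin1 they were Zfp318, Htt and Heatr5b (r = 0.986, 0.985 and 0.984). For Grin2a they were Enc1, Camk1d and C2cd2l (0.977, 0.974 and 0.973), and for Grin2b Cacna1e, Wipf3 and Kcna4 (0.993, 0.990 and 0.986). Among the members the closest pair was Grin2a and Grin2b (r = 0.937), and Grin2c was opposed to each of the other 4 tested, from −0.530 with Grin2a to −0.818 with Grin3a.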

How the data were processed

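Total RNA of the hippocampus was sequenced in 12 libraries after removal of ribosomal RNA, per the labels' protocols. Per the submitters' processing notes, alignment used HISAT2 2.0.4 and the build GRCm38.p6, and StringTie gave the transcript levels. The deposited tables give FPKM, fragments per unit of transcript length and library size, for each annotated transcript. The same deposited tables give the coverage of each transcript, the mean number of reads over its bases. They hold no read counts; annotation release and use of strand: not given in the sources used here. FPKM was a constant multiple of coverage within each library, from which mapped bases were recovered.

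Bases (coverage times length) were summed per gene, divided by the union of its exons in GENCODE M21 (54495 of 54532 genes; the longest transcript for the rest) and put on the FPKM scale. The median over 1461 protein-coding olfactory and vomeronasal receptor genes was subtracted library by library, and values below 0 were set to 0. The restriction to protein-coding receptor genes was made after the values were seen, to follow earlier processing of these data; the 1979 receptor genes of every biotype are an added alternative. Scaling between libraries was by median-of-ratios over the 5349 protein-coding genes whose mean reached 5. The test took 15060 genes, those with a mean no lower than 1 and 3 or more libraries at 1 or above. limma 3.58.1 in R 4.3.3 (trend and robust) was fitted to log2(value + 0.5) with 4 group means, two-sided, with Benjamini-Hochberg adjustment over all genes tested and a threshold of 0.05. A fold on this scale understates the change of a low gene.

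Ratios between genes and transcript shares were compared by exact two-sided permutation tests, with adjustment over 3 ratios or 6 shares. The smallest possible p was 0.1 within a sex and 0.005 over both. On values simulated with the spread of these libraries, a log2 change of 1 was called in 52.5% of 200 changed genes for females, 45% for males and 53% for the control sexes, among 15060 genes each. For the difference of the cKO effects it was called in 30%, and for their mean in 65.5%. The simulation gave a gene the same spread in every group. It held no deviation shared by cKO females 2 and 3, so recovery in the real female comparison may differ.

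Same-numbered control and cKO libraries did not deviate together in every pair: correlations of their deviations from the group means for pairs 1 to 3 were 0.15, −0.30 and 0.38 (females) and 0.04, −0.10 and 0.20 (males). The design text speaks of pairs but no label says which libraries form one, so the numbers were not used as a block. The alternatives changed the scaling, pseudocount, filter, weights, block and libraries, one at a time. Those on deposited FPKM changed several choices together: no subtraction, FPKM summed over transcripts, another filter and 39358 or 43399 genes tested.

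The members, lists and tests were chosen with earlier results of these data known. Of the other NMDA receptor signalling genes up to 4 of each list are named, those past the threshold in any comparison first, then by the mean effect, with the 3 genes most correlated with each of Grin1, Grin2a and Grin2b; some genes that this rule names are not reported here. Comparisons of ratios and of cKO libraries between the sexes, transcript length classes, the C1 and C2 cassettes and the miR-137 search were added after values were seen.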

Additional observations from a re-analysis of the deposited data

How the results depend on the processing

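In the comparison of control sexes Grin2a and Grin2b were below 0 under every alternative run, and so was Grin1, though at −0.01 on scaled deposited FPKM, where the median of all genes was −0.30. With deposited FPKM scaled by median-of-ratios none of the members was called (0), with deposited FPKM as it stands 1, with no scaling after subtraction 0 and with array weights 5, against 3. Genes called over the whole table in that comparison numbered 104, 341, 10 and 5038 in the same order, 722 with no filter and 3375 without cKO females 2 and 3, against 1769. The 988 higher and 781 lower calls became 79 and 25 on scaled deposited FPKM, where the share called higher was larger; limma's median of all genes shifted by over 0.1 under several scalings, up to 0.88 for females on unscaled deposited FPKM. Grin3a reversed to 0.0914 on scaled deposited FPKM. Causes of these changes were not tested.

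In the cKO comparisons counts of genes called over the whole table moved. On scaled deposited FPKM they were 0 in females, males and the mean effect. On unscaled deposited FPKM they were 10452 in females and 0 in males, and with quantile normalization 35 and 0. Without scaling after subtraction males and the mean effect had 0. With no filter females had 31, and without cKO females 2 and 3 the mean effect had 10. Array weights gave 3496 in females, 16 in males, 1738 for the difference and 3453 for the mean, and 1 member, Grin2c, called in females. The main counts were 11, 1, 0 and 5.

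Small log2 changes of members that had not passed changed sign. On scaled deposited FPKM Grin1 was −0.96 and Grin3a −0.34 in females, Grin2b −0.10 and Grin3a −0.11 in males, Grin1 0.71 and Grin3a 0.23 for the difference, and −0.61 and −0.22 for the mean. On unscaled deposited FPKM Grin1 was −0.24 in females, 0.24 for the difference and −0.13 for the mean, and Grin2c was −0.0125 for the difference. With quantile normalization Grin3a was −0.14 in females, 0.18 for the difference and −0.0497 for the mean, and Grin1 −0.0288 for the mean. Without scaling after subtraction Grin1 and Grin3a were −0.41 and −0.29 in females, 0.34 and 0.34 for the difference, and −0.24 and −0.12 for the mean. With array weights Grin2b was −0.14 and Grin2c 0.0432 in males.

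Without cKO females 2 and 3 the signs of Grin1 (−0.16), Grin3a (−0.0259) and Grin2a (0.0085) turned in females. So did those of Grin1 (0.11), Grin3a (0.0877), Grin2c (−0.11) and Grin2a (−0.0608) for the difference, and of Grin1 (−0.10) and Grin2b (0.0099) for the mean. The cKO effect on the log2 ratio of Grin2a to Grin2b became 0.0722 in females, and that of the GluN2 genes to Grin1 became 0.13 in females and 0.0861 over both sexes. On deposited FPKM the latter was −0.0194 in males. None of the ratio or share tests passed under any alternative.

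Leaving out each library in turn moved the whole-table counts between 1 and 5906 in females, 1 and 2 in males, 0 and 3078 for the difference, 3 and 4572 for the mean and 551 and 2768 for the control sexes. The highest counts for the cKO comparisons in females, the difference and the mean came without cKO female 1. Members called ranged from 0 to 1 in females and for the mean. Ranges that crossed 0 in females were −0.0094 to 0.20 for Grin1 and −0.0213 to 0.24 for Grin3a. In males they were −0.16 to 0.0558 for Grin1, −0.25 to 0.0766 for Grin2a, −0.14 to 0.20 for Grin2b and −0.0513 to 0.12 for Grin3a. For the difference they were −0.20 to 0.0831 for Grin3a and −0.0050 to 0.32 for Grin2a, and for the mean −0.0404 to 0.0755 for Grin1 and −0.15 to 0.0179 for Grin2b. Ratios crossed 0 in females from −0.22 to 0.0355 (Grin2a to Grin2b) and −0.0797 to 0.27 (Grin3a to Grin1), and in males from −0.0835 to 0.14 (GluN2 genes to Grin1) and −0.0170 to 0.32 (Grin3a to Grin1). The share of the main Grin2c form ranged from −0.22 to 0.46 points. The N1 difference ranged from −11.2 to −5.59 points.

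Whether the replicate numbers pair the samples is not given by the labels, and the correlations of mixed sign above do not decide it. With the number as a block, 0 genes were called over the whole table in females, males and the mean effect, and no call of a member changed. Grin2b between the control sexes then had a limma adjusted p of 0.0113. Depth limits Grin2d and Grin3b, whose exons were covered at a median of 1.52 and 1.06 reads per base. Receptor genes of every biotype as background, an alternative chosen after seeing the data, changed no call of a member.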
